A study of Mus musculus with 6 samples.

Results

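Complex I, the NADH:ubiquinone oxidoreductase of the mitochondrial inner membrane, was read through 43 nuclear genes out of 19937 genes with a named probe set. The members were all genes whose symbol in the platform annotation starts with Nduf, each represented by its brightest probe set over the 6 arrays. They were the 10 measured genes of the Ndufs and Ndufv series, which include the catalytic core, the 26 accessory genes of the Ndufa, Ndufb and Ndufc series, and the 7 assembly factor genes of the Ndufaf series. Ndufb1, Ndufb4 and Ndufaf8 were not analysed here as members.

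The cells were primary neurospheres, colonies that neural precursors form in suspension, and all 6 samples are labelled as big neurospheres. They were grown from minced hippocampus of male C57BL/6J mice 8 to 12 weeks old. Both groups were kept in complete neurosphere medium with EGF and bFGF and collected on day 14. One group (n = 3) grew with 10 µM norepinephrine, a monoamine transmitter, and the other (n = 3) with 15 mM KCl, which depolarises neurons. An untreated group was not analysed here, so each difference is norepinephrine minus KCl and carries no direction against an untreated level. Replicates are labelled as biological, but whether each had its own mouse or culture is not stated, so every p-value rests on the spread among these 6 arrays alone, part of which may be technical.

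Complex I takes electrons from NADH and passes them over a flavin and a chain of iron-sulfur clusters to ubiquinone, and it pumps protons across the inner membrane. Its peripheral arm in the matrix is built from the N module, where NADH is oxidised, and the Q module, where ubiquinone is reduced, and its membrane arm holds the proton pumps. Part of the core is encoded in mitochondrial DNA, while the genes read here are nuclear. Neural stem and precursor cells are known to rely more on glycolysis and to raise oxidative phosphorylation as they differentiate into neurons.

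All values are log2 expression values per array, so a difference of 1 is a doubling, and they cannot be set against each other between genes. On the array of KCl replicate 1 the values were compressed, with a standard deviation of 1.38 over the named probe sets against 1.62 to 1.78 on the other 5. Bright probe sets read low on it. Bright probe sets are here the 5410 with a mean of 8.22 or more over the 6 arrays. They held 38 of the 43 members, so each main result is given with and without that array. Of 8 neural precursor markers 7 were measured, and their probe sets lay between percentiles 74.8 and 99.9 of brightness, with Sox2 at 95.7 and Vim at 99.5. The 4 microglial and 3 endothelial markers lay between percentiles 13.1 and 54.3. Neuron markers ran from 23.1 for Dcx to 99.3 for Map2, and astrocyte markers from 45.4 for S100b to 88.0 for Aldh1l1. Oligodendrocyte markers ran from 35.1 for Mog to 69.9 for Sox10. These percentiles rank probe sets by brightness and do not compare RNA amounts of different genes.

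Complex I genes read higher with norepinephrine as a group, in 43 of 43 members on the values as deposited, 41 after quantile normalization and 38 with each array centred on its bright probe sets. As deposited, the difference had a median of 0.53 and a range from 0.08 to 1.34. It was above 0 in 38.0% of all 21640 named probe sets and 70.4% of the bright ones. Without KCl replicate 1 it was above 0 in 42 of 43, with a median of 0.32, against 52.2% of all probe sets and 48.0% of the bright ones. The median over all named probe sets was -0.07 on 6 arrays and 0.01 on 5, and that over the bright probe sets was 0.15 and -0.01. In bulk samples such as these, more cells of a type and more RNA per cell cannot be told apart.

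**Figure D1:**
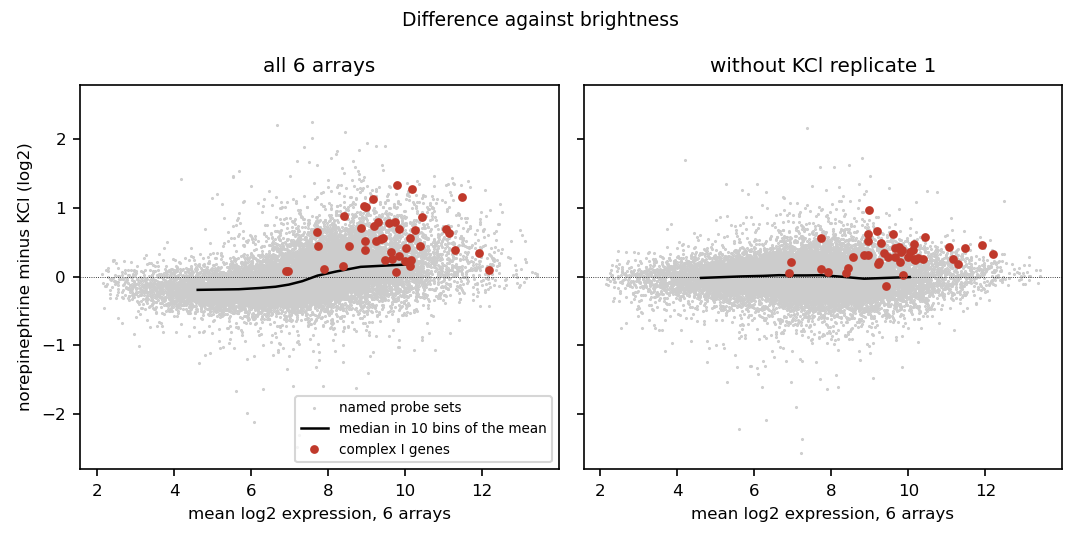
Difference between treatments (norepinephrine minus KCl, log2) against mean log2 expression over the 6 arrays, with all named probe sets in grey, complex I genes in red and the median in 10 bins of brightness as a line. On all 6 arrays the line climbs from -0.19 in the dimmest bin to 0.18 in the brightest. Without KCl replicate 1 it stays between -0.03 and 0.02, and 42 of the 43 complex I genes lie above 0.

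Taken singly, the members did not reach the threshold. Under limma, with p-values adjusted by Benjamini-Hochberg across all named probe sets, 0 of 43 members had an adjusted p under 0.05, as had 0 (0%) of all probe sets, and the lowest adjusted p of a member was 0.908, that of Ndufaf3. Without KCl replicate 1, 4 probe sets in all passed (0.0185%). They held 0 complex I genes, one was the astrocyte gene Gfap (limma with Benjamini-Hochberg, adjusted p = 0.045), and the lowest adjusted p of a member was 0.427. At an unadjusted p under 0.05 stood 8 members (18.6%), all higher with norepinephrine, where 2.20% of all probe sets and 4.84% of the bright ones stood in that direction. The 8 were Ndufs6, Ndufa2, Ndufa7, Ndufb5, Ndufb7, Ndufb8, Ndufb10 and Ndufaf3. That count was 12 (27.9%) without KCl replicate 1, against 2.38% of all probe sets and 4.03% of the bright ones, and 7 genes stood in both counts. Without KCl replicate 2 it was 25, but the background rose with it, to 8.64% of all probe sets and 23.2% of the bright ones. It was 14 without KCl replicate 3, against 2.01% and 5.18%, and 2 without norepinephrine replicate 1, against 0.920% and 1.55%. When limma weighted the arrays by their fit, 17 members passed at an adjusted p under 0.05. In that direction 4.0% of all probe sets passed. KCl replicates 1 to 3 had weights of 0.158, 0.288 and 6.76, so the KCl level rested mostly on KCl replicate 3. At an unadjusted p under 0.05 that fit held 32 members, against 11.2% of all probe sets and 21.9% of the bright ones.

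The treatments did not overlap, every norepinephrine array above every KCl array, for 17 of the 43 members (39.5%). This was so for 4.36% of all named probe sets and 9.45% of the bright ones. Without KCl replicate 1 the count was 22 (51.2%), against 8.13% of all probe sets and 11.0% of the bright ones, and without KCl replicate 2 it was 29, against 13.7% and 32.4%. The 17 were Ndufs3, Ndufs5, Ndufs6, Ndufs8, Ndufa2, Ndufa5, Ndufa7, Ndufa8, Ndufab1, Ndufb2, Ndufb5, Ndufb7, Ndufb8, Ndufb9, Ndufb10, Ndufc1 and Ndufaf3. The dimmer second probe sets of Ndufs3, Ndufab1 and Ndufc1 did overlap. No member had every KCl array above every norepinephrine array.

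**Figure D2:**
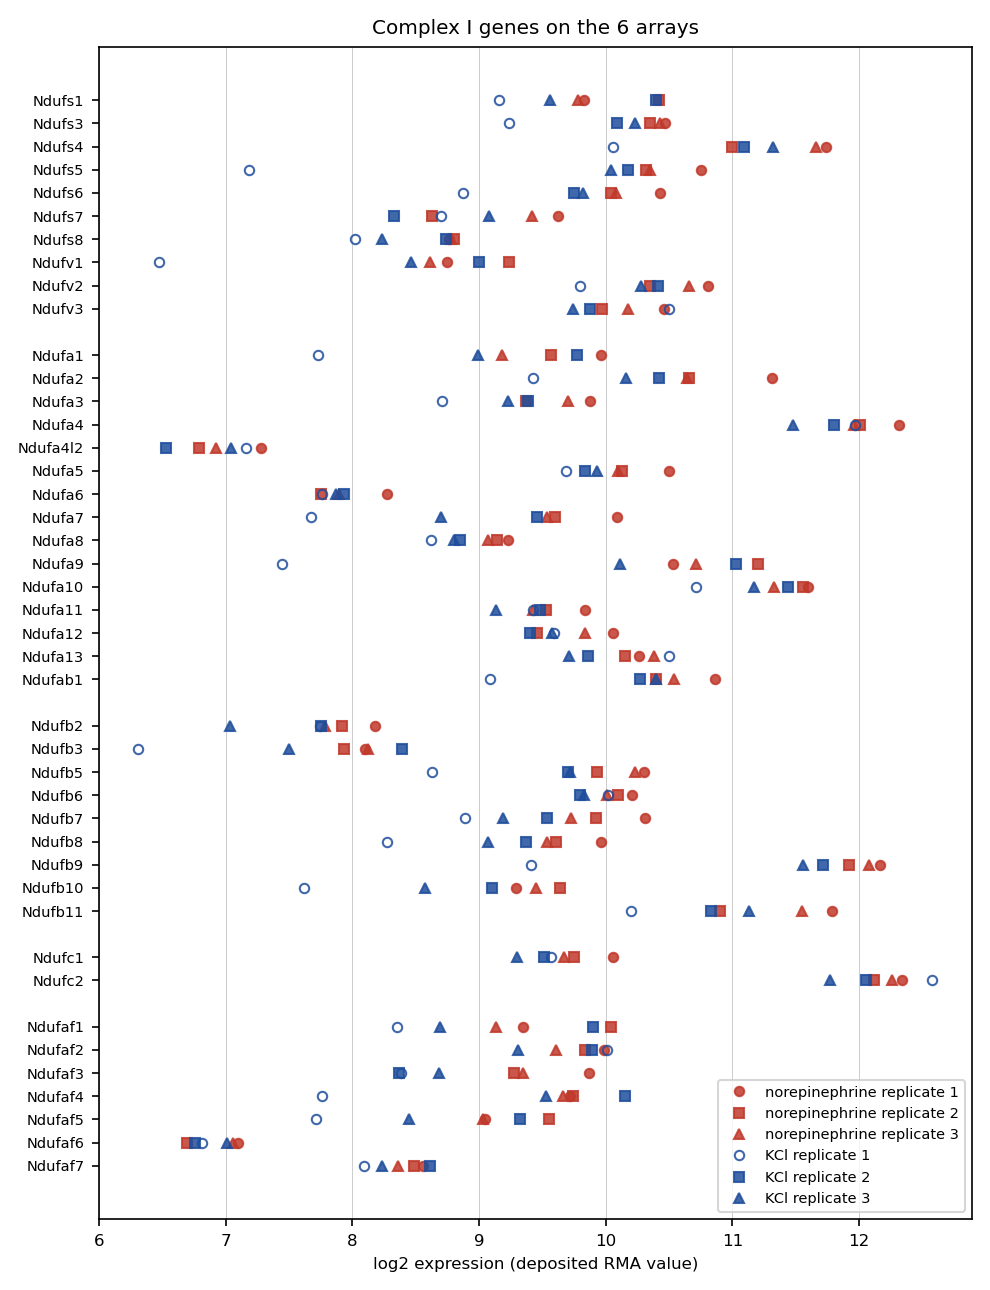
Log2 expression of each of the 43 complex I genes on each array, with norepinephrine arrays in red, KCl arrays in blue and KCl replicate 1 as open circles. Genes are grouped by series from Ndufs and Ndufv at the top to Ndufaf at the bottom. In 28 genes the open circle is the lowest of the 6 points, and in 36 genes a red point is the highest.

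Averaged over the 43 members, the 3 norepinephrine arrays read 10.00, 9.76 and 9.76 and the KCl arrays 8.83, 9.63 and 9.39, in the order of the replicate numbers. The 2 groups of means do not overlap, but KCl replicate 2 lies only a little under norepinephrine replicates 2 and 3. By the median over members, norepinephrine replicate 3, at 9.70, fell below KCl replicate 2, at 9.75. Norepinephrine replicate 1 was the highest of the 6 arrays for 29 members and replicate 2 for 7. Set against the median of the bright probe sets on the same array, the members' median was 0.91, 0.58 and 0.57 higher on the norepinephrine arrays and 0.06, 0.42 and 0.23 higher on the KCl arrays.

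KCl replicate 1 was the lowest array for 28 members, KCl replicate 3 for 8 and KCl replicate 2 for 5. The level on KCl replicate 1 minus the mean of the other 2 KCl arrays ran from -3.13 for Ndufa9 to 0.71 for Ndufa13, with a median of -0.59. For the bright probe sets the median of that value was -0.53, so the members were about as low on that array as bright probe sets in general. By the median, the norepinephrine mean lay further above each KCl array in the members than in the bright probe sets. The norepinephrine mean minus KCl replicate 1 had a median of 0.94 in the members and 0.50 in the bright probe sets. The norepinephrine mean lay above KCl replicate 2 in 33 of 43 members, with a median of 0.29, and above KCl replicate 3 in 41, with a median of 0.45. Of the bright probe sets it lay above KCl replicate 2 in 37.1% and above KCl replicate 3 in 62.6%, with medians of -0.11 and 0.09. Across the 43 members, which share the same arrays, the rank correlation of the 6-array difference with the deviation of KCl replicate 1 was -0.82. The 6-array difference holds the KCl replicate 1 value itself, so part of this negative correlation is built in.

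**Figure D3:**
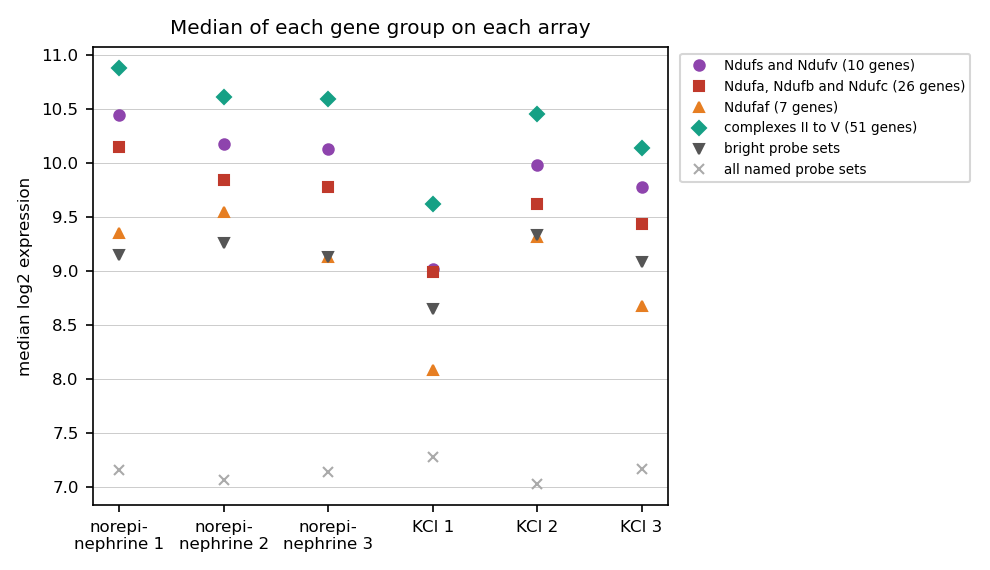
Median log2 expression on each array for the core, accessory and assembly series of complex I, for respiratory complexes II to V, for the bright probe sets and for all named probe sets. KCl replicate 1 is the lowest array for the 3 complex I series, complexes II to V and the bright probe sets, and the highest, at 7.28, for all named probe sets.

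The promoters of the members were searched for motifs of 3 factors known to control nuclear genes of the respiratory chain: NRF1 (GCGCANGCG), the ETS factor GABPA (CCGGAAG) and YY1 (AAGATGG). Windows from RefSeq (GRCm38.p6), from 250 bases before to 50 after each start, were read on both strands for 38 members. The NRF1 motif was in 9 members (23.7%), against 7.03% of the 27025 genes in the promoter table and 18.9% of the measured genes with bright probe sets. The ETS motif was in 5 members (13.2%), against 9.93% and 22.6%, and the YY1 motif in 7 (18.4%), against 7.28% and 10%. No base of a YY1 match fell within an NRF1 or ETS match in any member window printed here. A match is a string of letters and was not tested as a binding site.

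The following stretches show the NRF1 motif in 4 members that differ in size of difference. Each is written in the gene's own direction with the motif, on either strand, in capitals, and all 4 genes lie on the minus strand of GRCm38.p6. In Ndufa8 the motif occurs 2 times in reverse, ending at the base before the start.
Ndufa8, chr2:36049339-36049392: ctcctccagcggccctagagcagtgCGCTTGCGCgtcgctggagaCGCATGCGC
Ndufb10, chr17:24724397-24724465: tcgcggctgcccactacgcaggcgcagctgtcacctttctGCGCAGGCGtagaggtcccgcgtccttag
Ndufs5, chr4:123718251-123718309: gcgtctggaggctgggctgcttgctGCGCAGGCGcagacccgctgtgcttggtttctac
Ndufs6, chr13:73328473-73328527: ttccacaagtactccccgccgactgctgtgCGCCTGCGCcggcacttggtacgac
The ETS motif is shown for Ndufb7, on the plus strand, and Ndufs3, on the minus strand, where it lay shortly before the start. It also did so in Ndufaf1, at position -18, which is not shown. Its other matches in members began from position -232 in Ndufb6 to position 15 in Ndufs8, with the start counted as 0.
Ndufb7, chr8:83566708-83566764: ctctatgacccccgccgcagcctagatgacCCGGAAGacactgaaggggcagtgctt
Ndufs3, chr2:90904722-90904778: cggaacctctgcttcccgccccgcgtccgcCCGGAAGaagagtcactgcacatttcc

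The YY1 motif was placed alike in all 7 members that held it. It lay on the gene's own strand, beginning 22 to 38 bases after the start, in 7 of 7 matches, whereas 19.7% of the 2187 matches over all windows lay on that strand and after the start. The motif holds the letters ATG. The 7 stretches are shown to compare their surroundings, with Ndufa3 and Ndufs7 on the plus strand and the others on the minus strand.
Ndufa3, chr7:3617387-3617406: ccaagaacAAGATGGccggg
Ndufa9, chr6:126849104-126849123: tgtgggagAAGATGGcggcc
Ndufb8, chr19:44555393-44555412: agaaggtgAAGATGGctgcc
Ndufc1, chr3:51408922-51408941: tgcggaacAAGATGGcgccg
Ndufs4, chr13:114388048-114388067: cctacaggAAGATGGcggcg
Ndufs6, chr13:73328438-73328457: tcaccggcAAGATGGcggcg
Ndufs7, chr10:80249465-80249484: ccgaggccAAGATGGcggcg
The difference between the treatments was also read by motif. Without KCl replicate 1 the median was 0.32 with and 0.29 without the NRF1 motif, 0.29 and 0.33 for the ETS motif, and 0.39 and 0.29 for the YY1 motif, and these were not tested against each other.

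The core series, Ndufs and Ndufv, read higher with norepinephrine in 10 of 10 members, with a median of 0.54, or 0.28 without KCl replicate 1. The 6 conserved catalytic subunits read here had a median of 0.48, or 0.26 without that array. In the N module, Ndufv1 encodes the flavoprotein that binds NADH. It read 8.75, 9.24 and 8.61 with norepinephrine and 6.47, 9.0 and 8.46 with KCl, replicates 1 to 3 in order, here and below. The 2 treatments overlap, KCl replicate 1 lies far below the rest, and the difference of 0.89 ± 0.57 (SE) was 0.13 ± 0.24 without it. Ndufv2, an iron-sulfur partner of Ndufv1, read 10.81, 10.35 and 10.66 against 9.80, 10.41 and 10.28, a difference of 0.44 ± 0.23, or 0.26 ± 0.19. Ndufs1, the large subunit that carries several iron-sulfur clusters, read 9.83, 10.42 and 9.78 against 9.16, 10.40 and 9.56. Replicate 2 was the highest of both treatments, and without KCl replicate 1 Ndufs1 stood at 0.03 ± 0.28.

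Of the catalytic subunits read here, Ndufs3, Ndufs8 and Ndufs7 belong to the Q module. Ndufs3 read 10.47, 10.35 and 10.43 with norepinephrine and 9.24, 10.09 and 10.23 with KCl, so the groups did not overlap, and its difference was 0.56 ± 0.27, or 0.26 ± 0.16 without KCl replicate 1. A second, dimmer Ndufs3 probe set stood at 0.15 ± 0.23. Ndufs8, which carries 2 iron-sulfur clusters on the way to ubiquinone, was nearly constant with norepinephrine, at 8.76, 8.80 and 8.78, against 8.02, 8.74 and 8.23 with KCl. That difference was 0.45 ± 0.22, or 0.29 ± 0.19. Ndufs7, which carries the last cluster before ubiquinone, read 9.62, 8.63 and 9.42 against 8.70, 8.33 and 9.08. In both treatments replicate 2 was the lowest for Ndufs7, the reverse of Ndufs1, and KCl replicate 1 did not stand apart. Its difference was 0.52 ± 0.30 with all arrays and 0.52 ± 0.32 without KCl replicate 1. Over the 4 measured Q module genes the median was 0.48, or 0.33 without that array, and over the 10 N module genes 0.54, or 0.28.

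Other genes of this series encode accessory subunits in spite of their names. Ndufs5, a small subunit of the membrane arm, had the largest difference of all members, 1.34 ± 0.69, and it rested on KCl replicate 1. It read 10.75, 10.32 and 10.35 with norepinephrine and 7.18, 10.18 and 10.04 with KCl, and the difference was 0.36 ± 0.19 without that array. Ndufs6, a zinc-binding subunit needed late in the assembly of the N module, read 10.43, 10.04 and 10.08 against 8.87, 9.75 and 9.82, without overlap. Its difference was 0.70 ± 0.28, or 0.39 ± 0.18. Ndufs4, a subunit whose loss in mice is a model of Leigh syndrome, stood at 0.64 ± 0.35, or 0.26 ± 0.24. Ndufv3 had the smallest difference of the series, 0.16 ± 0.25, at 10.46, 9.97 and 10.18 with norepinephrine against 10.50, 9.88 and 9.74 with KCl. KCl replicate 1 was its highest array. Without that array Ndufv3 stood at 0.39 ± 0.19.

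The accessory series Ndufa, Ndufb and Ndufc read higher with norepinephrine in 26 of 26 members, with a median of 0.50, or 0.35 without KCl replicate 1, where all 26 again lay above 0. In the Ndufa series of 15 genes the median was 0.39, or 0.29. Ndufa9, which sits where the 2 arms meet, had the largest difference, 1.28 ± 0.76, and the widest spread. It read 10.53, 11.20 and 10.71 with norepinephrine and 7.44, 11.03 and 10.11 with KCl, and it stood at 0.24 ± 0.29 without KCl replicate 1. Ndufa7, of the N module, was less tied to that array. Its readings of 10.09, 9.60 and 9.54 lay above 7.67, 9.46 and 8.70, and the difference was 1.14 ± 0.41, or 0.66 ± 0.26 without KCl replicate 1. Ndufa2, a thioredoxin-like N module subunit, read 11.31, 10.66 and 10.64 against 9.43, 10.42 and 10.16, again without overlap. It stood at 0.87 ± 0.30, or 0.58 ± 0.23.

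At the other end of the Ndufa series stood Ndufa4l2, known as a hypoxia-induced gene, at 0.09 ± 0.24. Its arrays, at 7.28, 6.79 and 6.92 against 7.16, 6.53 and 7.04, overlapped. Its relative Ndufa4, whose protein is now assigned to cytochrome c oxidase, read 12.32, 12.01 and 11.96 against 11.97, 11.80 and 11.48, a difference of 0.35 ± 0.21, or 0.46 ± 0.19 without KCl replicate 1. With both left out, the accessory median was 0.60, or 0.35 without that array. Ndufa13, also studied as the cell death regulator GRIM-19, was among the members that grew when KCl replicate 1 was left out, from 0.24 ± 0.24 to 0.48 ± 0.17. Ndufab1, the mitochondrial acyl carrier protein, stood at 0.68 ± 0.34, while its dimmer second probe set stood at -0.50 ± 0.33, the only Nduf probe set below 0 on 6 arrays. The 2 probe sets of Ndufa11 stood at 0.25 ± 0.20 and, for the dimmer, 0.89 ± 0.38.

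The Ndufb series, subunits of the membrane arm, had the highest median of the series, 0.78 over 9 genes, or 0.44 without KCl replicate 1, though the series were not tested against each other. Ndufb10 read 9.29, 9.64 and 9.45 with norepinephrine and 7.62, 9.10 and 8.57 with KCl. The groups did not overlap, and its difference of 1.03 ± 0.35, a 2.04-fold difference, was 0.62 ± 0.21 without KCl replicate 1. Ndufb9 read 12.17, 11.92 and 12.08 with norepinephrine, against 9.41, 11.72 and 11.56, a difference of 1.16 ± 0.54, or 0.42 ± 0.17. Ndufb8, a subunit often used as a marker of assembled complex I in immunoblots, read 9.96, 9.61 and 9.54 against 8.27, 9.37 and 9.07, a difference of 0.80 ± 0.29, or 0.49 ± 0.19.

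Ndufb7 depended least on KCl replicate 1 among the larger differences of the series. It read 10.31, 9.92 and 9.73 against 8.89, 9.54 and 9.19, and stood at 0.78 ± 0.24, or 0.62 ± 0.21. Ndufb5 stood at 0.80 ± 0.31, or 0.44 ± 0.18. The smallest difference was that of Ndufb6, at 10.21, 10.10 and 10.01 against 10.02, 9.80 and 9.83, or 0.22 ± 0.18. Ndufb3 was at 0.65 ± 0.44 and, without KCl replicate 1, at 0.11 ± 0.25, with KCl replicate 2 its highest array. Of the Ndufc pair, both in the membrane arm, Ndufc1 read 10.06, 9.75 and 9.67 against 9.57, 9.51 and 9.30, without overlap, at 0.36 ± 0.19. A second, dimmer Ndufc1 probe set stood at 0.12 ± 0.22, and its treatments overlapped. Ndufc2 was highest on KCl replicate 1, at 12.58, against 12.34, 12.12 and 12.26 with norepinephrine and 12.06 and 11.77 on the other KCl arrays. It stood at 0.11 ± 0.24, or 0.33 ± 0.17 without KCl replicate 1.

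**Figure D4:**
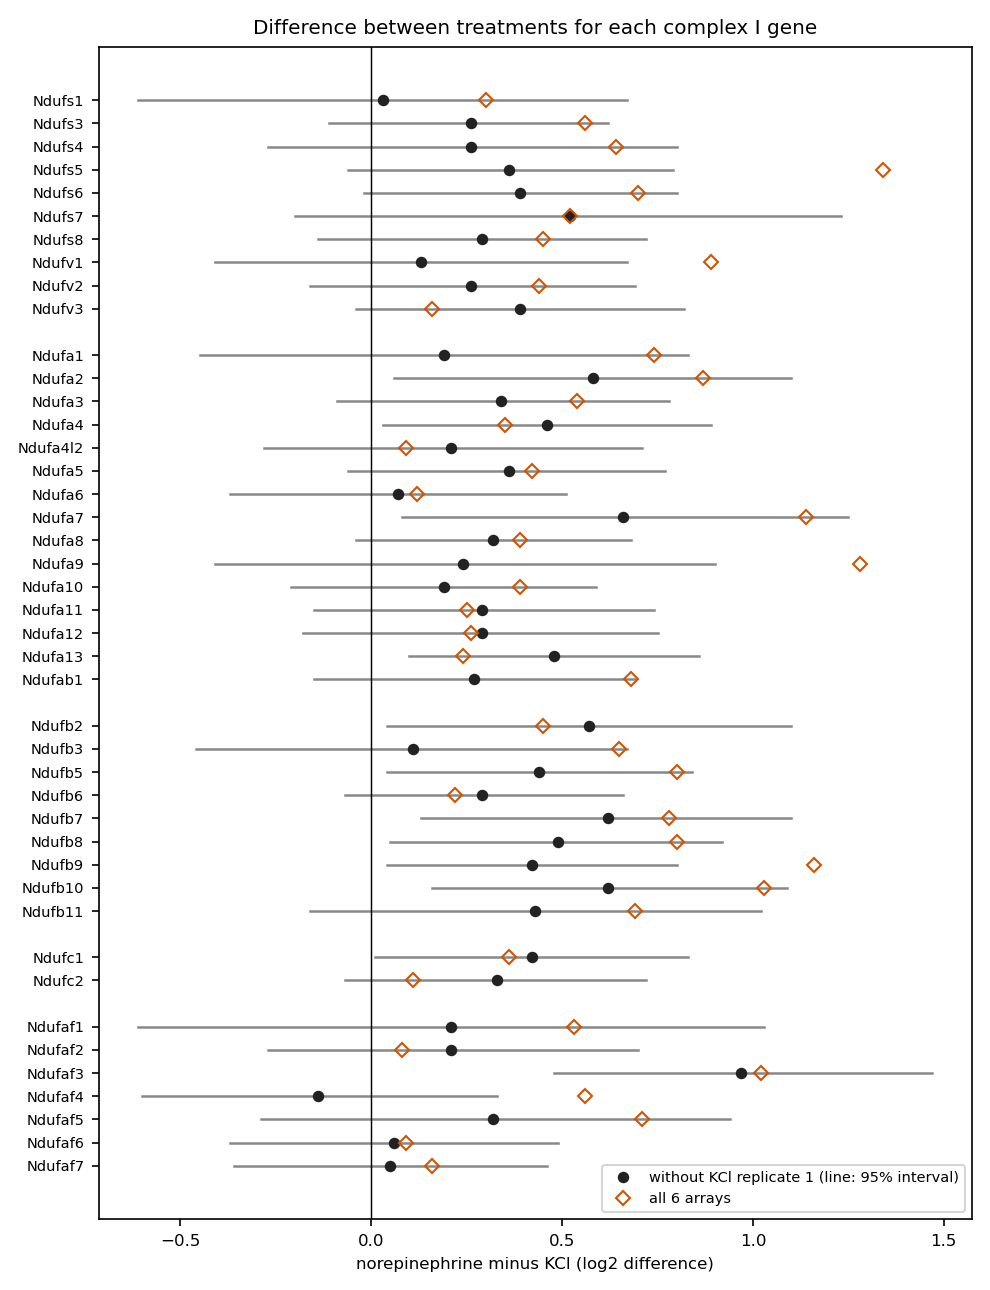
Difference between treatments (norepinephrine minus KCl, log2) of each complex I gene on all 6 arrays (open diamonds) and without KCl replicate 1 (black points, with 95% intervals from limma, not adjusted for the number of genes). Without that array Ndufaf4 alone lies below 0, and the intervals of 12 genes lie above 0.

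The assembly factors, proteins that build complex I but are not part of it, read higher with norepinephrine in 7 of 7 members, with a median of 0.53. This median was 0.21 without KCl replicate 1, 0.97 without KCl replicate 2 and 0.26 without norepinephrine replicate 2, so it moved with single arrays more than the other medians. Ndufaf3, which acts in early assembly around the Q module, differed little with KCl replicate 1 left out. It read 9.87, 9.28 and 9.35 with norepinephrine and 8.38, 8.37 and 8.68 with KCl. All norepinephrine arrays lay above all KCl arrays, and KCl replicate 1 read as replicate 2. Its difference was 1.02 ± 0.22, a 2.03-fold difference, or 0.97 ± 0.22 without KCl replicate 1, but it did not pass by limma with Benjamini-Hochberg adjustment (adjusted p = 0.908 and, without that array, 0.427).

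The partner of Ndufaf3 in that step, Ndufaf4, went otherwise. Its norepinephrine arrays were close, at 9.72, 9.74 and 9.66, and the KCl arrays wide, at 7.76, 10.15 and 9.53. The difference of 0.56 ± 0.52 became -0.14 ± 0.21 without KCl replicate 1. Ndufaf5, which modifies the Ndufs7 protein, read 9.05, 9.55 and 9.03 against 7.71, 9.32 and 8.45, or 0.71 ± 0.38, and 0.32 ± 0.27 without that array. Ndufaf1, which acts in assembly of the membrane arm, stood at 0.53 ± 0.41, or 0.21 ± 0.36. In Ndufaf1, Ndufaf4 and Ndufaf5, as in Ndufs1, Ndufs8, Ndufv1, Ndufa9 and Ndufb10, replicate 2 was the highest of each treatment. Of all 43 members, replicate 2 was the highest norepinephrine array for 8 and the lowest for 20. The median of the bright probe sets was highest on replicate 2, at 9.26 with norepinephrine and 9.33 with KCl. Ndufaf2, a late assembly factor, read 9.99, 9.84 and 9.61 against 10.01, 9.89 and 9.31 and had the smallest difference of all members, 0.08 ± 0.24. Ndufaf6 and Ndufaf7, the latter a methyltransferase, stood at 0.09 ± 0.20 and 0.16 ± 0.20.

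Genes of complex I without the Nduf prefix were read beside the members. Of 11 further assembly genes 10 were measured, and all 10 lay above 0, with a median of 0.29. Without KCl replicate 1 there were 8 above 0, with a median of 0.17, and none had an unadjusted p under 0.05 in either fit. Among them Ecsit, an assembly factor also known from innate immune signalling, stood at 0.46 ± 0.24, Tmem126b at 0.47 ± 0.33 and Acad9 at 0.01 ± 0.22. The mitochondrially encoded core subunit ND3 had 2 probe sets. They read 13.37, 13.21 and 13.46 against 13.33, 13.18 and 13.30, and 12.10, 12.04 and 12.58 against 12.64, 12.06 and 12.39. These differed by 0.07 ± 0.18 and -0.12 ± 0.23, and the treatments overlapped in both.

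The other respiratory complexes, II to V, read higher with norepinephrine in 47 of 51 genes, with a median of 0.44, or 45 of 51 and 0.25 without KCl replicate 1. Their values and those of complex I come from the same arrays, and the 2 sets were not tested against each other. Of 10 regulators of mitochondrial biogenesis 6 lay above 0, with a median of 0.03, or 5 and 0.00 without KCl replicate 1. The coactivator Ppargc1a read 9.77, 9.88 and 9.89 against 9.30, 10.19 and 10.15, a difference of -0.03 ± 0.26. Without KCl replicate 1 its difference was -0.32, and both remaining KCl arrays lay above every norepinephrine array. Nrf1, which encodes the factor of the first motif above, differed by 0.13 ± 0.17, and Yy1 by -0.01 ± 0.18. Without that array they differed by 0.12 and -0.04. None of the 10 had an unadjusted p under 0.05 in either fit.

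Markers of cell types were read on the same arrays. The mean of 4 astrocyte markers was 7.99 to 8.34 with norepinephrine and 7.18 to 7.42 with KCl, without overlap, with Gfap at 1.89 ± 0.30 and Aqp4 at 1.17 ± 0.22, while S100b stood at -0.29 ± 0.19. The mean of 5 neuron markers was 8.00 to 8.19 against 7.70 to 7.86, with Snap25 at 1.03 ± 0.27 and Map2 at -0.33 ± 0.18. The mean of 4 microglial markers was 6.06 to 6.18 against 6.78, 5.99 and 6.30, that of 3 endothelial markers 6.22 to 6.49 against 6.78, 6.15 and 6.52, and that of 3 oligodendrocyte markers 7.13 to 7.21 against 7.72, 6.80 and 7.12. Of the neural precursor markers 3 of 7 lay above 0, with a median of -0.05. Without KCl replicate 1 it was 4 of 7, with a median of 0.07. The 3 were Slc1a3, Vim and Sox2, at 0.55, 0.44 and 0.35, or 0.14, 0.28 and 0.07 without that array. Nes went from -0.10 to -0.58 when that array was left out. The median of the neuron markers went from 0.15 to 0.38 without that array, and that of the astrocyte markers from 0.79 to 0.63. The medians of the microglial, endothelial and oligodendrocyte markers went from -0.21, -0.12 and -0.05 to 0.03, 0.06 and 0.19. The part of cell composition in the complex I differences was not tested.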

How the data were processed

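RNA of 6 samples of big neurospheres, 3 per treatment, was read on whole-transcript arrays. The deposited table holds log2 values for each probe set. Partek and RMA are named, without settings or versions, per the submitters' processing notes. Of 34760 probe sets, 21640 carried 1 gene symbol, 1321 several and 11799 none in the platform annotation. All 48 Nduf probe sets matched RefSeq by Entrez identifier with no change of symbol, and 5 of the 43 genes had 2 probe sets.

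limma 3.58.1 in R 4.3.3 (lmFit, eBayes) was fitted to the deposited log2 values of all 21640 named probe sets, two-sided, with no covariate, Benjamini-Hochberg adjustment over all of them and a threshold of 0.05. Errors after differences are moderated standard errors with n = 3 per group, or 3 and 2 without KCl replicate 1. The fit was tested on simulated data. Medians and counts over members have no test. The members and lists were chosen with earlier results of these data known.

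Values on every array are given for the 6 measured catalytic subunits, for the 3 largest and the smallest differences of each series, for Ndufa4 and Ndufa4l2 and for any member below 0, which made 24 genes. Others were added after their values were seen. Alternatives were quantile normalization, median centring, a filter at the 30th percentile of brightness, trend and robust moderation, array weights (gene-by-gene method, as the default did not converge), the replicate number as a block, the mean of probe sets per gene and leaving out each array. Centring on the bright probe sets was added after the data were seen. A planned search of protein sequences was not run. Signal over background was not assessed, and the number of arrays limits the precision.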

Additional observations from a re-analysis of the deposited data

How the results depend on the processing

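Every alternative fit left the median over all members above 0, from 0.32 without KCl replicate 1 to 0.68 without KCl replicate 2, and with 0.40 after quantile normalization, 0.56 after median centring, 0.47 with array weights and 0.37 with arrays centred on the bright probe sets. Leaving out single arrays gave 0.28 to 0.73 for the core series, 0.35 to 0.63 for the accessory series and 0.21 to 0.97 for the assembly factors. The members above 0 numbered 40 to 43 when an array was left out and 41 after quantile normalization. Members at an unadjusted p under 0.05, 8 in the fit reported, were 2 to 25 when an array was left out. In that direction stood 0.920% to 8.64% of all named probe sets and 1.55% to 23.2% of the bright ones. The members so counted were 32 with array weights, against 11.2% of all probe sets and 21.9% of the bright ones. With the replicate block they were 16, against 4.24% and 9.94%. Probe sets past the adjusted threshold, 0 in the fit reported, were 0 to 4 when an array was left out and 1454 with array weights, whose weights ran from 0.158 to 6.76. With the arrays weighted in limma, 17 members passed, with a lowest adjusted p of 0.00565. Of all named probe sets 4.0% passed, higher with norepinephrine. The KCl level in that fit rested mostly on KCl replicate 3. Members without overlap, 17, were 17 to 29 when an array was left out. The shares were 5.73% to 13.7% of all named probe sets and 11.0% to 32.4% of the bright ones. After quantile normalization there were 11 such members, against 5.15% and 7.45%. The cause of these changes was not tested.

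Of 336 refitted differences of the 24 named genes, 11 changed sign. Part of the 336 could not change sign, so their number does not measure stability. The brightness filter, trend and robust moderation and the replicate block leave each difference as it was. Median centring moves all genes by the same amount, and the mean of probe sets alters only genes with several probe sets. Ndufaf2 was -0.09 after quantile normalization, -0.08 with arrays centred on the bright probe sets, -0.14 without KCl replicate 3 and -0.01 without norepinephrine replicate 1. Ndufc2 was -0.01, -0.05 and -0.08 under the first 3 of these, and Ndufa4l2 was -0.07 with that centring, -0.10 without KCl replicate 2 and -0.05 without norepinephrine replicate 1. Ndufaf4 was -0.14 without KCl replicate 1. When an array was left out, Ndufaf4 ran from -0.14 to 1.06, Ndufc2 from -0.08 to 0.33, and Ndufaf2 from -0.14 and Ndufa4l2 from -0.10, both to 0.21.

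The labels do not say whether equal replicate numbers mark paired samples. Deviations from the group means over all named probe sets correlated at 0.301, 0.626 and 0.0852 for numbers 1 to 3. Norepinephrine replicate 3 correlated best with KCl replicate 1, at 0.311. With 3 arrays per group the deviations within a group depend on each other, so these values cannot settle a pairing. The replicate block left 0 probe sets past the adjusted threshold.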

Other observations

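Probe sets that the platform lists under several symbols were left out of the members. The brighter of the 2 listed under both Ndufb4 and Ndufb4b read 11.38, 10.76 and 10.95 with norepinephrine and 9.36, 10.54 and 10.10 with KCl, without overlap, a difference of 1.03, or 0.72 without KCl replicate 1. The dimmer read 6.03, 6.71 and 6.86 against 6.95, 6.56 and 4.29. A probe set shared by Ndufs5 and its pseudogene read 10.22, 9.89 and 9.80 against 7.26, 9.77 and 9.45, or 0.36 without KCl replicate 1, the same as the Ndufs5 probe set among the members. KCl replicate 1 was far below the other arrays on both Ndufs5 probe sets.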
